A study of Mus musculus with 7 samples.

Results

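The genes described here are C-type lectin pattern receptors and Card9, the adaptor that several of them signal through. They were chosen by name, with earlier results of these data known. Each of the 9 was found among the 19938 genes measured, on 1 row of the array each. RNA of flow-sorted macrophages from the lamina propria of the colon was hybridised to 7 arrays; all mice were C57BL/6 and 6 weeks old. Il10ra_mKO (2 arrays) stands for CX3CR1cre:IL10Raflox/flox mice, in which Cre expressed from the Cx3cr1 locus deletes the IL-10 receptor chain Il10ra, and its control WT_resident (3 arrays) for Cx3cr1gfp/+ mice. Both carry the sort label resident. Il10_KO (1 array) stands for IL10-/- CX3CR1gfp/+ mice and its control WT_CX3CR1hi (1 array) for Cx3cr1gfp/+ mice, both with the sort label CX3CR1hi. Every control array thus came from mice that carry GFP at Cx3cr1, and Il10ra_mKO differs from its control in Cre against GFP as well as in Il10ra, so those cannot be told apart. Separate animals are not stated for the arrays of a group, and a p-value therefore speaks only of how far these samples scatter, and that scatter may be technical.

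C-type lectin receptors read sugars and lipids on microbes and on damaged cells. Some couple to the kinase Syk, either through the signalling chain FcRgamma (Fcer1g) or through a tyrosine motif in their own tail, and pass the signal to Card9, Bcl10 and Malt1, which switch on NF-kB. Others carry an inhibitory motif that recruits the phosphatases Shp-1 and Shp-2. In the colon, macrophages meet bacteria and fungi of the gut lumen, and IL-10 holds their response down.

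In both mutants the Syk-coupled receptors Clec4e and Clec4d, the inhibitory Clec12a and the dendritic cell receptor Clec9a were at least 2-fold higher than in the control of the same sort label, and Cd209a was at least 2-fold lower. These are 4 and 1 of the 9 genes. Of all genes, 0.451% were at least 2-fold higher in both comparisons and 0.622% at least 2-fold lower. All 9 genes had 2 or more arrays above log2 5.86, the table's median, but only 10558 of the 19938 genes did. Dim genes thus weigh on every share of all genes given here, and shares among bright genes alone are not given. None of the 9 genes passed the test across all 19938 genes in Il10ra_mKO against WT_resident (limma, adjusted p of 0.244 to 0.996). In that comparison both Il10ra_mKO arrays lay above all WT_resident arrays for 6 of the 9, against 8.92% of all genes, and below them for 1 of the 9, against 8.5%. Clec4a2 and Card9 overlapped. At least 2-fold higher in Il10ra_mKO were 5 of the 9 (0.953% of all genes) and lower 1 (1.43%), and in Il10_KO 4 (0.692%) and 1 (1.22%). At an unadjusted p under 0.05, 4 of the 9 were higher (4.06% of all genes) and 1 lower (3.86%). Past the adjusted p of 0.05 there were 0% of all genes higher and 0.00502% lower. The median difference over the 9 genes was 1.36 on the log2 scale in Il10ra_mKO and 0.81 in Il10_KO, against 0.00 and 0.03 over all genes. Because the 9 genes were chosen with earlier results of these data known, these contrasts describe the list and do not test for an excess.

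**Figure D1:**
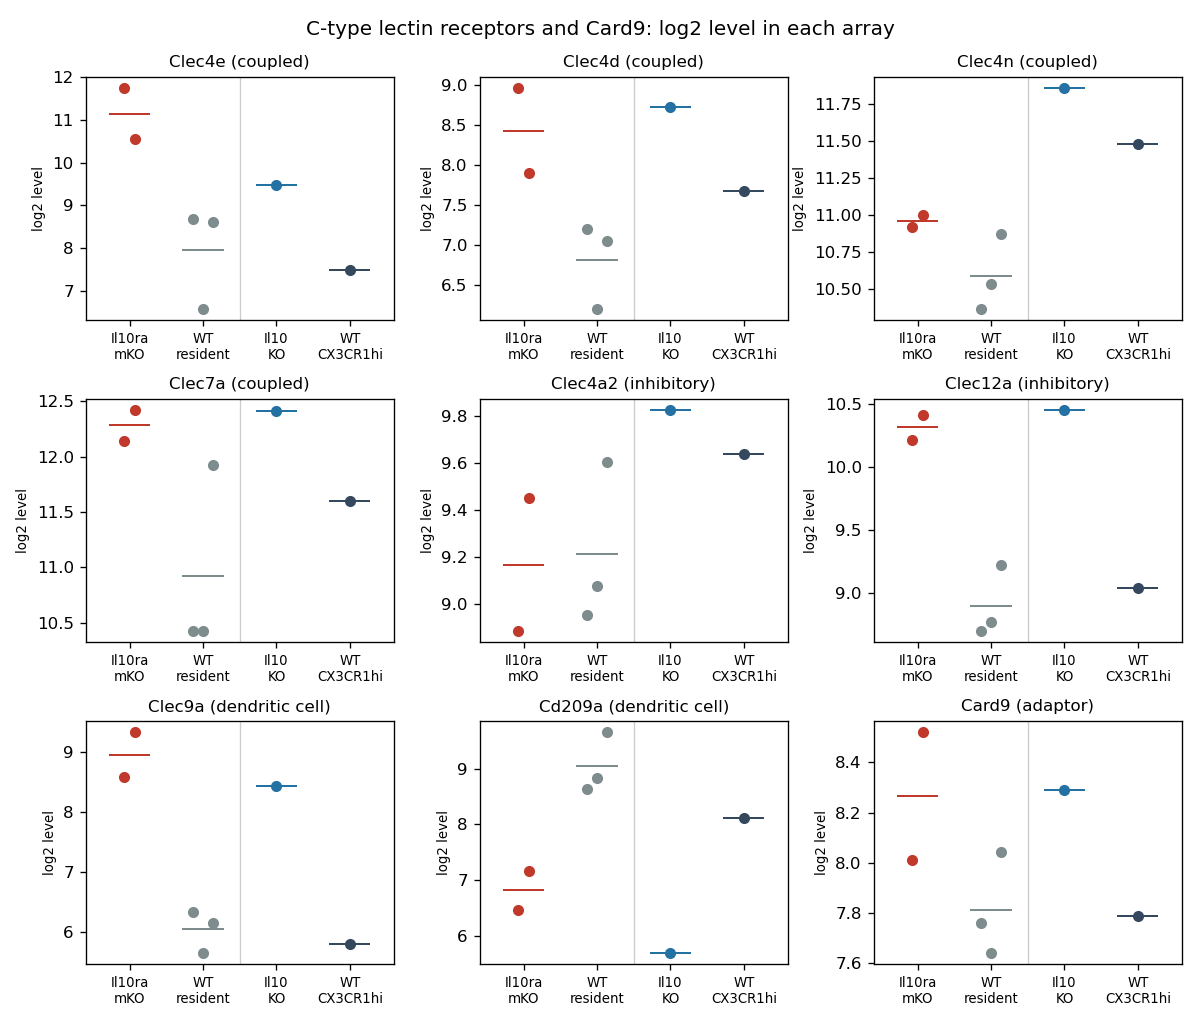
Log2 level (y axis, with a scale of its own in each panel) of the 9 genes in each array, by group (x axis); each point is 1 array and each bar the group's mean. Both Il10ra_mKO points lie above every WT_resident point for 6 genes and below for Cd209a, while Clec4a2 and Card9 overlap.

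The arrays carried RNA of macrophages and of other cells. All 11 measured macrophage markers passed the brightness filter (2 or more arrays above log2 5.86, the table's median). Lyz2 was at 13.54 and 13.66 in Il10ra_mKO and 13.47 to 13.54 in WT_resident. Of the 11, 3 were without overlap higher in Il10ra_mKO and 2 lower, against 8.92% and 8.5% of all genes. Cd163 differed most, at 6.32 and 6.04 in Il10ra_mKO against 6.64 to 8.90 in WT_resident. Epithelial markers were bright too: their mean log2 level was 10.98 and 9.20 in Il10ra_mKO against 10.79 to 11.21 in WT_resident, and 11.09 in Il10_KO against 11.63 in WT_CX3CR1hi. Il10ra was at 8.05 and 7.04 in Il10ra_mKO and at 10.56, 10.76 and 11.12 in WT_resident, as the labels say. Il10 was at 10.75 in the array labelled Il10_KO and 11.04 in WT_CX3CR1hi. The sources used here do not place its probes against the deletion. The level therefore checks nothing, and directions given for Il10_KO rest on the label. B and plasma cell markers averaged 7.46 and 8.21 in Il10ra_mKO against 7.00 to 7.25 in WT_resident, and their part in the results was not tested. Sort label and, as far as sample numbers follow the order of the series, RNA extraction kit cannot be told apart, so differences are taken only within a sort label, and an order over all 7 arrays is a description.

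Clec4e and Clec4d are FcRgamma-coupled receptors that lie next to each other on mouse chromosome 6. Clec4e (Mincle) binds mycobacterial cord factor and a nuclear protein set free by dying cells, and Clec4d (MCL) binds the same glycolipid and helps to bring Clec4e to the cell surface. Their start sites are shown because both genes were higher in every mutant array than in its controls. The windows run from 250 bases before to 50 after the start in RefSeq's GRCm38.p6, at chr6:123289822-123290121 on the minus strand for Clec4e and chr6:123261857-123262156 on the plus strand for Clec4d. Capitals mark matches to the C/EBP motif TTGCNNAA and to the PU.1 core GAGGAA, on either strand.
Clec4e: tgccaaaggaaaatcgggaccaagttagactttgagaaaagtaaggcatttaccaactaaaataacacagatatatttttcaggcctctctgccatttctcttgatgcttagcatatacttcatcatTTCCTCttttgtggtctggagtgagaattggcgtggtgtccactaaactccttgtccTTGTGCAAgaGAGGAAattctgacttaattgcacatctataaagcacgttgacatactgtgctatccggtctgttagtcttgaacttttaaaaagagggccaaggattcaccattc
Clec4d: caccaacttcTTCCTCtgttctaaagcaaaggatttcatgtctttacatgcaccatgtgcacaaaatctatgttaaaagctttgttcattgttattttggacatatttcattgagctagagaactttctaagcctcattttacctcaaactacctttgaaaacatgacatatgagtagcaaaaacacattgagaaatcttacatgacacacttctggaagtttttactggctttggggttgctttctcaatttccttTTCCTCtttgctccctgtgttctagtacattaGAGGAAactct
The C/EBP motif was found in the Clec4e window, 66 bases before the start, and not in that of Clec4d. It is held by 10.8% of the 32851 windows of the table. The PU.1 core was found in both windows, and 28.3% of all windows hold it. The GAS motif TTCNNNGAA, to which STAT proteins bind (8.3% of windows), and the NF-kB consensus (4.51%) had no match in either window. A match of letters is not a binding site.

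Clec4e stood at log2 11.74 and 10.56 in the Il10ra_mKO arrays, against 8.68, 6.56 and 8.60 in the WT_resident arrays. The groups did not overlap, and the second control lay far below the other controls. The difference was 3.21 ± 0.88 (SE, 2 against 3 arrays), 9.23-fold, with a 95% interval of 0.71 to 5.70 (limma adjusted p = 0.511). In Il10_KO Clec4e was at 9.46, against 7.47 in WT_CX3CR1hi, a difference of 1.99 with no replicate. Over the 7 arrays the 3 mutant ones held the 3 highest levels.

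Clec4d was at 8.96 and 7.89 in Il10ra_mKO and at 7.20, 6.19 and 7.04 in WT_resident. As for Clec4e, the first Il10ra_mKO array was the highest and the second WT_resident array the lowest. The groups did not overlap, with a difference of 1.61 ± 0.50 (SE, 3.06-fold, limma adjusted p = 0.565). In Il10_KO the level was 8.72, against 7.67 in WT_CX3CR1hi, so the difference was 1.05.

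Clec4n and Clec7a, the receptors of fungal cell walls, had smaller differences than Clec4e and Clec4d with all arrays. The order of Clec7a and Clec4d was not tested. It turned without the third WT_resident array (1.86 for Clec7a and 1.73 for Clec4d in Il10ra_mKO). Clec4n (Dectin-2) is FcRgamma-coupled and binds mannans, and Clec7a (Dectin-1) binds beta-glucans and signals through a motif of its own. Clec4n was at 10.92 and 11.00 in Il10ra_mKO and at 10.36, 10.53 and 10.87 in WT_resident. The gap between the groups was 0.047, and the difference 0.37 ± 0.18 (SE, limma adjusted p = 0.678), with a 95% interval of -0.13 to 0.87. Il10_KO was at 11.86, against 11.48 in WT_CX3CR1hi. Both arrays of the CX3CR1hi label were above all 5 resident ones for this gene.

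Clec7a was at 12.14 and 12.42 in Il10ra_mKO, against 10.42, 10.42 and 11.93 in WT_resident. The third WT_resident array lay 0.22 below the lower mutant array and far above the other controls. The difference was 1.36 ± 0.58 (SE, 2.56-fold, limma adjusted p = 0.678). In Il10_KO it was at 12.41, against 11.60 in WT_CX3CR1hi, a difference of 0.81.

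The titles carry sample numbers, of which 54 to 56 and 67 to 68 are runs of neighbours that each hold both resident genotypes. What the numbers stand for is not given. Within 54 to 56 (Il10ra_mKO 1 array, WT_resident 2) the Clec4e difference was 4.12, and within 67 to 68 (1 against 1) it was 1.96. The Clec4d difference was 2.26 and 0.85, that of Clec7a 1.72 and 0.49, and that of Clec4n 0.47 and 0.13. All 4 of these receptors were thus higher in the mutant in both runs, with the smaller difference in the run 67 to 68. For Clec12a (1.48 and 1.19), Clec9a (2.59 and 3.17) and Cd209a (-2.26 and -2.49) the direction was likewise the same in both runs.

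**Figure D2:**
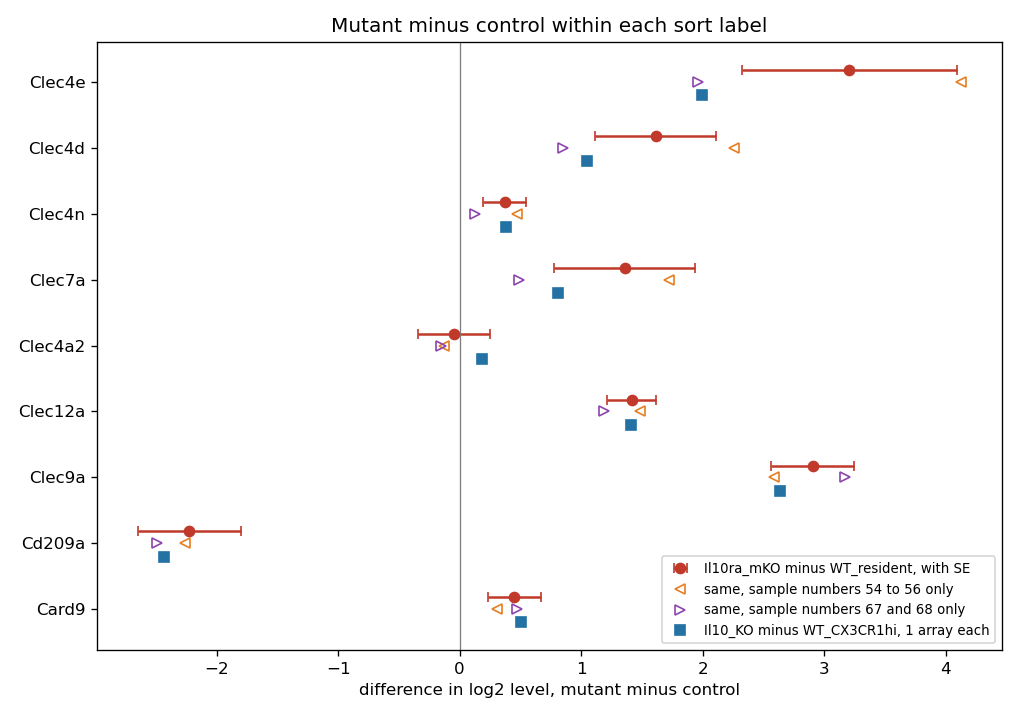
Difference in log2 level, mutant minus control (x axis), for each gene (y axis). Red points are Il10ra_mKO minus WT_resident with the SE of the fit, open triangles the same within each run of sample numbers, and blue squares Il10_KO minus WT_CX3CR1hi (1 array each); Clec9a and Cd209a have all marks beyond 2 log2 units, on opposite sides of 0.

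Monocytes and neutrophils also express Clec4e and Clec4d, and the mean levels of both marker lists were higher in both Il10ra_mKO arrays. In bulk RNA, more cells of a type and more RNA per cell cannot be told apart. The mean log2 level of the 8 measured monocyte markers was 8.01 and 7.43 in Il10ra_mKO against 7.13 to 7.32 in WT_resident. F10, coagulation factor X, was at 9.18 and 8.84 in Il10ra_mKO against 5.65 to 6.17 in WT_resident. Without F10, a choice made after seeing the data, the other 7 averaged 7.84 and 7.23 in Il10ra_mKO against 7.31 to 7.49 in WT_resident, so the second Il10ra_mKO array lay below the controls. That of the 12 neutrophil markers was 6.16 and 5.75, against 5.63 to 5.69. In the CX3CR1hi pair the means were 6.80 in Il10_KO and 6.64 in WT_CX3CR1hi for monocytes, and 5.96 in Il10_KO and 5.64 in WT_CX3CR1hi for neutrophils. Of the neutrophil markers 7 of 12 were without overlap higher in Il10ra_mKO and 0 lower, and of the monocyte markers 2 of 8 higher and 2 lower, against 8.92% and 8.5% of all genes. Defining neutrophil genes were dim, with the alarmin S100a8 at 5.92 and 5.28 in Il10ra_mKO and 4.96 to 5.11 in WT_resident, while Ly6g was at 9.70 and 8.10 against 6.95 to 8.17. Csf3r, the receptor for G-CSF, was at 9.60 and 10.01 in Il10ra_mKO and 8.33 to 8.98 in WT_resident. The chemokine receptor Ccr2, carried by monocytes, was at 10.65 and 10.64 against 9.75 to 11.33. The part of these cells in the lectin differences was not tested.

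The inhibitory receptors differed from each other. Clec12a (MICL) recognises uric acid crystals and restrains inflammation, and Clec4a2 (DCIR1) dampens the activation of myeloid cells. Clec12a was at 10.22 and 10.41 in Il10ra_mKO, against 8.70, 8.77 and 9.22 in WT_resident, and at 10.45 in Il10_KO, against 9.04 in WT_CX3CR1hi. The mutant arrays stood together between 10.22 and 10.45, and the control arrays lay together at 9.22 or below. The difference was 1.42 ± 0.20 (SE, 2.67-fold, limma adjusted p = 0.285) in Il10ra_mKO and 1.41 in Il10_KO. With quantile normalization of the arrays Clec12a passed across all genes (limma adjusted p = 0.0364, with 0.0364 to 0.783 over the alternatives).

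Clec4a2 was at 8.88 and 9.45 in Il10ra_mKO and at 8.95, 9.08 and 9.60 in WT_resident. The groups overlapped, and the difference was -0.04 ± 0.30 (SE, limma adjusted p = 0.996), with a 95% interval of -0.88 to 0.79. Il10_KO was at 9.82, against 9.64 in WT_CX3CR1hi. The sign of the Il10ra_mKO difference turned when arrays were median-centred or left out, so no direction is given.

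Clec9a and Cd209a, known best from dendritic cells, went opposite ways. Clec9a (DNGR-1) marks cross-presenting dendritic cells, where it binds actin filaments laid bare in dead cells and signals through Syk. It was at 8.58 and 9.32 in Il10ra_mKO, against 6.34, 5.65 and 6.15 in WT_resident. In Il10_KO it was at 8.44, against 5.80 in WT_CX3CR1hi. All 3 mutant arrays were at 8.44 or above and no control passed 6.34, near the brightness cut, so the fold starts from a dim level. The difference was 2.91 ± 0.34 (SE, 7.49-fold, 95% interval 1.94 to 3.87, limma adjusted p = 0.244) in Il10ra_mKO and 2.63 in Il10_KO. It passed across all genes with quantile normalization (limma adjusted p = 0.0344) and with median centring (0.0197). It also passed with all WT arrays as 1 control (0.0178), but that setting crosses the sort labels, which cannot be told apart from other differences. Over the alternatives the limma adjusted p for Clec9a ran from 0.0178 to 0.667.

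Markers of cross-presenting dendritic cells other than Clec9a overlapped between the groups for 4 of the 7 measured. Their mean log2 level was 7.18 and 7.56 in Il10ra_mKO against 6.89 to 6.96 in WT_resident, and 7.15 in Il10_KO against 6.80 in WT_CX3CR1hi. The other 3 were without overlap higher in Il10ra_mKO (8.92% of all genes) and 0 were lower. By the sign of the difference alone, all 7 were higher in Il10ra_mKO and all 7 in Il10_KO. Of all 19938 genes, 9645 were higher in Il10ra_mKO and 11230 in Il10_KO. The chemokine receptor Xcr1 was at 6.50 and 6.42 in Il10ra_mKO, 5.50 to 5.84 in WT_resident, 5.62 in Il10_KO and 5.41 in WT_CX3CR1hi. Itgae (CD103) and Gcsam were under the brightness cut in every array, as were Flt3 and Zbtb46, which all conventional dendritic cells carry. Zbtb46 held the same value, 4.73, in all 5 resident arrays. Cadm1, an adhesion protein, was at 9.20 and 10.12 in Il10ra_mKO and overlapped WT_resident (8.43 to 9.21). The part of dendritic cells in the Clec9a difference was not tested.

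Clec12a and Clec9a lie close together in the Dectin-1 cluster of chromosome 6, and their start sites are shown because both were higher in all mutant arrays. The windows lie at chr6:129349994-129350293 for Clec12a and chr6:129408612-129408911 for Clec9a, both on the plus strand of GRCm38.p6 (RefSeq). Capitals mark the same motifs as above.
Clec12a: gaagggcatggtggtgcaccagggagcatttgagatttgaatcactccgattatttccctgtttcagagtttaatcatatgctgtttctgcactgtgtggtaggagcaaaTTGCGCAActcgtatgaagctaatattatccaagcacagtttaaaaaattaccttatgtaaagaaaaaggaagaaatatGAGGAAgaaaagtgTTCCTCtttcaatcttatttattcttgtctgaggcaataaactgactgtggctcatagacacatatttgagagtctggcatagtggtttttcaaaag
Clec9a: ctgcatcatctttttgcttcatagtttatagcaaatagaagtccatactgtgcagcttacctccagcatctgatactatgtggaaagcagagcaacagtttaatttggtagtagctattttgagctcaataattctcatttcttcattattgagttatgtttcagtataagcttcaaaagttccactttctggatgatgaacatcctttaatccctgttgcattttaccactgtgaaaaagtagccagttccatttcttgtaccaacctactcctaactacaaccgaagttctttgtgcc
The Clec12a window held the C/EBP motif 140 bases before the start and the PU.1 core 61 and 47 bases before it. The Clec9a window held none of the 4 motifs, and neither did those of Cd209a and Card9. Both windows of Clec7a held the PU.1 core only, and that of Clec4a2 the GAS motif only. Of the 9 genes 8 had a window in the table, Clec4n being the exception.

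Cd209a encodes a mouse relative of human DC-SIGN, a receptor for mannose and fucose sugars. Its level was 6.47 and 7.16 in Il10ra_mKO, against 8.63, 8.83 and 9.65 in WT_resident. In Il10_KO it was 5.69, against 8.12 in WT_CX3CR1hi. The 3 mutant arrays were the 3 lowest of all 7. The difference was -2.22 ± 0.42 (SE, 4.67-fold lower, 95% interval -3.42 to -1.03, limma adjusted p = 0.374) in Il10ra_mKO and -2.43 in Il10_KO. Probe sets of the neighbouring Cd209 paralogues may share signal. Cd209d (-0.50), Cd209e (-0.19) and Cd209f (-1.58) were also without overlap lower in Il10ra_mKO (8.5% of all genes). Cd209b, Cd209c and Cd209g overlapped. In Il10_KO the differences were -0.76 for Cd209d, -0.73 for Cd209e and -1.72 for Cd209f. Cd209d and Cd209e did not pass the brightness filter. Fibroblast and muscle markers were lower in the same arrays. Their mean was 6.65 and 6.56 in Il10ra_mKO against 7.06 to 7.55 in WT_resident, and 6.44 in Il10_KO against 7.13 in WT_CX3CR1hi. The matrix proteoglycan Dcn led them (9.26 and 9.68 in Il10ra_mKO, 10.63 to 11.39 in WT_resident). Their part in the Cd209a difference was not tested. Markers of conventional dendritic cells of type 2, which carry Cd209a, averaged 7.20 and 7.46 in Il10ra_mKO and overlapped WT_resident (6.93 to 7.30). In the CX3CR1hi pair their mean was 7.19 in Il10_KO and 7.01 in WT_CX3CR1hi. Of these 9 type 2 markers, 3 were without overlap higher in Il10ra_mKO and 2 lower, against 8.92% and 8.5% of all genes. The migration receptor Ccr7 was at 9.57 and 9.92 in Il10ra_mKO against 6.64 to 8.07 in WT_resident, and the integrin Itgax overlapped. Ccr7 had the largest difference of the list, 2.31 in Il10ra_mKO and 2.06 in Il10_KO, and so weighs on the mean. A mean without Ccr7 was not taken. The 2 lower ones were the peptidase Dpp4, at 8.24 and 8.39 in Il10ra_mKO against 8.53 to 8.75 in WT_resident, and the enzyme Kmo, at 7.74 and 7.81 against 8.16 to 9.16. Both were also lower in Il10_KO, by -0.48 and -0.92 against WT_CX3CR1hi on the log2 scale. Plasmacytoid dendritic cell markers averaged 6.52 and 6.63 in Il10ra_mKO against 6.72 to 6.80 in WT_resident. In Il10_KO the mean was 6.712 against 6.675 in WT_CX3CR1hi. Of the 6 measured, 2 were without overlap higher in Il10ra_mKO and 1 lower, against 8.92% and 8.5% of all genes. The lower one, Siglech, was at 5.43 and 5.45 in Il10ra_mKO against 6.80 to 7.22 in WT_resident. It was at 6.54 in Il10_KO against 7.28 in WT_CX3CR1hi.

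Card9 was at 8.01 and 8.52 in Il10ra_mKO and at 7.76, 7.64 and 8.04 in WT_resident. The lower mutant array lay just under the highest control. The difference was 0.45 ± 0.22 (SE, limma adjusted p = 0.678), with a 95% interval of -0.17 to 1.07. Il10_KO was at 8.29, against 7.79 in WT_CX3CR1hi, a difference of 0.50.

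None of the 9 genes passed the test of whether the effects of the 2 mutations differed, each taken against its own control (limma adjusted p of 0.906 to 1.00 over the 9 genes). The same test called 4.7% of all genes, and 886 of those 937 genes lay under the brightness filter, where many values are identical across the resident arrays. The test rests on 1 array on the Il10_KO side and leaves wide room. The effect in Il10ra_mKO minus that in Il10_KO was 1.22 for Clec4e (95% interval -3.39 to 5.82), 0.27 for Clec9a (-1.51 to 2.06), 0.01 for Clec12a (-1.04 to 1.06) and 0.21 for Cd209a (-1.99 to 2.41). These intervals include differences of more than 2-fold either way.

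Neighbouring lectin genes differed in size of effect. Of the 9 genes 7 lie on chromosome 6, in the Dectin-2 and the Dectin-1 clusters, while Cd209a lies on chromosome 8 and Card9 on chromosome 2. In the Dectin-2 cluster, Clec4n, Clec4d and Clec4e are consecutive protein-coding genes and their Il10ra_mKO differences were 0.37, 1.61 and 3.21. The lectin genes before them, Clec4a1, Clec4a3, Clec4a4, Clec4b1, Clec4a2 and Clec4b2, had differences from -0.36 to 0.18. Of the 13 other measured genes in that stretch, which takes in 8 genes on each side, 1 was without overlap higher in Il10ra_mKO and 1 lower (8.92% and 8.5% of all genes). In the Dectin-1 cluster, Clec12a (1.42), Clec9a (2.91), Clec7a (1.36) and the oxidised-lipoprotein receptor Olr1 (1.41) were higher. Clec12b, Clec1b and Clec1a between them were at 0.01, 0.36 and -0.02. There 5 of the 18 other genes were without overlap higher and 1 lower (8.92% and 8.5% of all genes), and 3 were at least 2-fold higher in both mutants (0.451%).

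**Figure D3:**
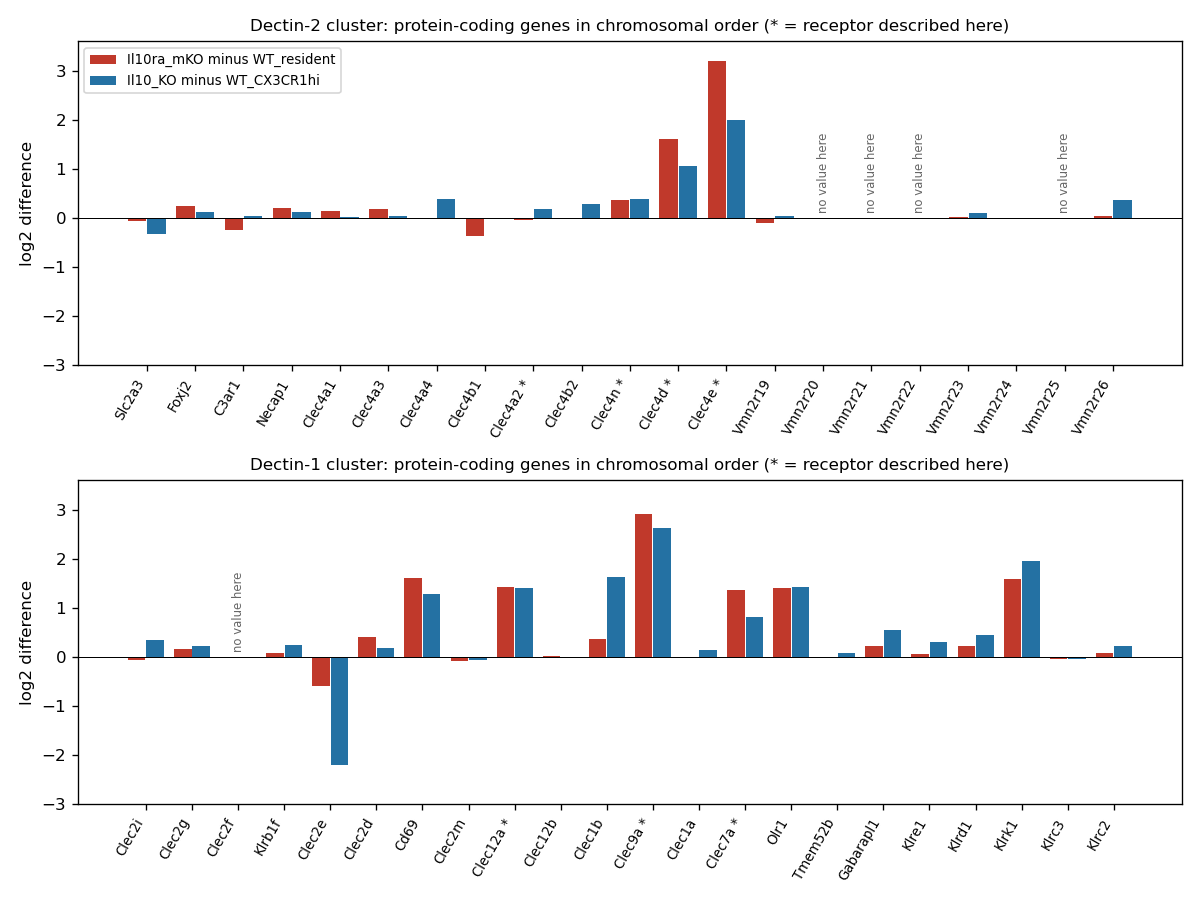
Log2 difference, mutant minus control (y axis), of protein-coding genes in chromosomal order (x axis, not to scale) around the Dectin-2 and Dectin-1 clusters; red bars are Il10ra_mKO minus WT_resident and blue bars Il10_KO minus WT_CX3CR1hi. Clec4d and Clec4e stand out beside lectin genes near 0, and Cd69, Clec12a, Clec9a, Clec7a, Olr1 and Klrk1 are high in the lower panel.

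Among 39 other C-type lectin genes 5 were without overlap higher in Il10ra_mKO and 8 lower, against 8.92% and 8.5% of all genes, and 0 passed across all genes. Of the 39, 21 passed the brightness filter, and the median difference was 0.00 in Il10ra_mKO and 0.01 in Il10_KO. Cd69, an early activation marker, was at 10.08 and 10.56 in Il10ra_mKO, against 8.23 to 9.30 in WT_resident, and at 9.62 in Il10_KO, against 8.34 in WT_CX3CR1hi. Olr1 was at 6.97 and 6.48 in Il10ra_mKO, against 5.03 to 5.55 in WT_resident, and at 6.71 in Il10_KO, against 5.29 in WT_CX3CR1hi. Both were thus higher in all 3 mutant arrays than in any control. Among the lower genes, Cd209f was at 5.14 and 4.82 in Il10ra_mKO, against 6.92, 7.41 and 5.35 in WT_resident, and at 6.66 in Il10_KO, against 8.38 in WT_CX3CR1hi. Mgl2, a receptor for galactose sugars, was at 8.72 and 9.56 in Il10ra_mKO, against 9.99 to 10.44 in WT_resident, but at 10.85 in Il10_KO, against 10.32 in WT_CX3CR1hi. Its effects in the 2 mutants differed by -1.64 ± 0.59 (SE, limma adjusted p = 0.323), so the difference did not pass. Clec1b (CLEC-2), the podoplanin receptor of platelets, had the highest Il10_KO difference of the list, 1.62 (6.60 against 4.98 in WT_CX3CR1hi), and 0.36 in Il10ra_mKO.

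Of 32 genes of Syk and Card9 signalling 28 were measured. Of these 12 were without overlap higher in Il10ra_mKO, against 8.92% of all genes, and 0 lower, 16 overlapped, and 0 passed across all genes (limma adjusted p from 0.442). The median difference was 0.14 in Il10ra_mKO and 0.25 in Il10_KO. Fcer1g, the chain that carries Clec4e, Clec4d and Clec4n signals, was at 12.98 and 13.10 in Il10ra_mKO, against 12.80, 12.95 and 12.98 in WT_resident, and at 13.03 in Il10_KO, against 12.86 in WT_CX3CR1hi. Its values spanned little across the arrays. Syk was at 9.99 and 10.25 in Il10ra_mKO, against 9.65, 9.56 and 9.77 in WT_resident, and at 10.73 in Il10_KO, against 10.36 in WT_CX3CR1hi. The difference for Syk was 0.46 ± 0.12 (SE, limma adjusted p = 0.471). The paracaspase Malt1, partner of Card9 and Bcl10, was at 10.68 and 10.66 in Il10ra_mKO, against 9.02, 8.65 and 10.23 in WT_resident, with the third control again high. In Il10_KO it was at 11.04, against 10.12 in WT_CX3CR1hi. The Src-family kinase Fgr was at 9.46 and 9.13 in Il10ra_mKO, against 8.16, 8.30 and 9.02 in WT_resident. Its difference was 1.22 within sample numbers 54 to 56 and 0.11 within 67 to 68. Cblc, a ubiquitin ligase known from epithelium, had the lowest Il10_KO difference (-0.41) and was at 7.02 and 6.25 in Il10ra_mKO against 6.96 to 7.13 in WT_resident.

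Of 18 genes that Syk and Card9 signals are known to induce, 6 were without overlap higher in Il10ra_mKO and 1 lower (8.92% and 8.5% of all genes), with a median of 0.28 in Il10ra_mKO and 0.10 in Il10_KO, and 0 passed across all genes (limma adjusted p from 0.172). Nos2, the inducible nitric oxide synthase, was at 9.86 and 8.03 in Il10ra_mKO, against 5.03 to 5.13 in WT_resident, and at 7.66 in Il10_KO, against 4.90 in WT_CX3CR1hi. Within the runs of sample numbers its Il10ra_mKO difference was 4.78 and 2.95. Il23a, the p19 chain of IL-23, was at 7.70 and 7.85 in Il10ra_mKO, against 5.14 to 5.80 in WT_resident, and at 6.77 in Il10_KO, against 5.51 in WT_CX3CR1hi. Its difference within the runs was 2.25 and 2.05. Il12b, the p40 chain shared by IL-12 and IL-23, was at 7.53 and 7.81 in Il10ra_mKO, against 5.60 to 5.95 in WT_resident, and had the lowest adjusted p of the list. The Il10_KO difference was 1.87. Egr1, an immediate early factor, was at 10.23 and 10.88 in Il10ra_mKO, against 10.94 to 11.23 in WT_resident. The genes named here are among those without overlap, and 11 of the 18 overlapped between Il10ra_mKO and WT_resident.

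Transcription factors tied to Clec4e or to dendritic cells were measured for all 10 genes of their list, of which 4 were without overlap higher in Il10ra_mKO (8.92% of all genes) and 0 lower, and 0 passed across all genes (limma adjusted p from 0.599). Cebpb, which with its relatives controls Clec4e in activated macrophages, was at 9.44 and 9.22 in Il10ra_mKO, against 8.38, 7.33 and 8.48 in WT_resident, and at 9.75 in Il10_KO, against 9.06 in WT_CX3CR1hi. Its lowest array was the second WT_resident array, as for Clec4e. The difference was 1.27 ± 0.42 (SE, limma adjusted p = 0.599). Id2 was at 11.76 and 12.23 in Il10ra_mKO, against 10.45 to 11.57 in WT_resident. Batf3, needed by cross-presenting dendritic cells, was at 6.77 and 7.29, against 6.56 to 6.70, and had the highest Il10_KO difference of the list, 0.72.

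**Figure D4:**
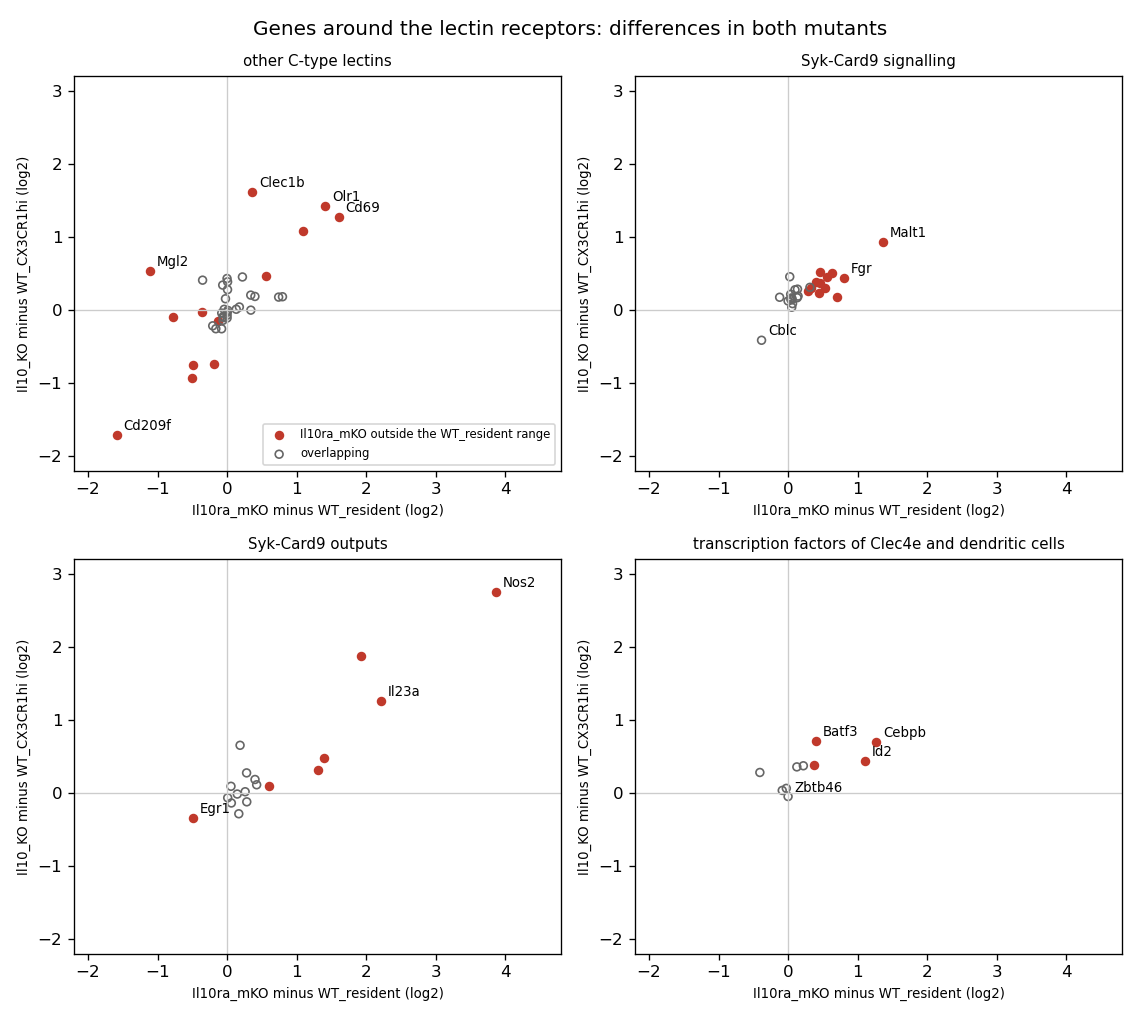
Il10ra_mKO minus WT_resident (x axis) against Il10_KO minus WT_CX3CR1hi (y axis), both as log2 differences, for 4 gene lists; each point is a gene, filled where both Il10ra_mKO arrays lie outside the range of WT_resident. The signalling genes crowd within 1 log2 unit of 0 except Malt1, while Nos2, Il23a and Il12b (unlabelled) stand far out among the outputs.

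The genes whose pattern over the 7 arrays was most like that of a lectin were found by the Euclidean distance between mean-centred log2 levels, with no test. For Clec4e they were Ifi205 (distance 1.46), Ccl5 (1.51), F10 (1.59) and Ccr7 (1.67). For Clec9a they were Cd300lf (0.93), Procr (1.09), Cst7 (1.17) and Iigp1 (1.21). For Cd209a they were Rgs18 (1.48), Bmp4 (1.81), Aspn (1.90) and Dpt (1.94). The last 2 encode extracellular matrix proteins that fibroblasts make. Cd300lf, the closest of all, was at no less than 7.94 in the mutant arrays and no more than 5.90 in the controls.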

How the data were processed

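The deposited values are log2 expression levels from 7 Affymetrix arrays of sorted colonic macrophages, and per the submitters' processing notes they were made with RMA, which corrects background, normalizes and summarises probes, and Partek. The sources used here name no versions or genome build and do not say whether the 2 sort labels were normalized together. The table has 35399 rows, of which 21789 name exactly 1 gene. The row with the highest mean was kept for each gene, which left 19938 genes. Names were matched to the RefSeq table of GRCm38.p6 by gene ID. Folds of dim genes are understated after RMA, and precision is limited by the few arrays.

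The linear models were fitted in R 4.3.3 with limma 3.58.1 (lmFit with the 4 groups, eBayes with a variance trend, 3 residual and 0.831 prior degrees of freedom), two-sided, with Benjamini-Hochberg adjustment over all genes. The threshold was an adjusted p of 0.05. The fit was run on simulated data with a known change, and the only requirement was that the median estimate lie near that change. That run does not check the p-values given here. The Il10_KO comparison has 1 array a side and is given with no p. In the resident arrays 844 genes hold 1 value in all 5 arrays, so their spread is 0. Gene order and start-site windows came from RefSeq.

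The members, lists and tests were chosen with earlier results of these data known. All 9 members are named, as are Il10ra and Il10. From each pathway list the rule named up to 2 genes in each direction with the largest Il10ra_mKO difference without overlap and the extremes of the Il10_KO difference. It also picked the brightest and the most different gene of each marker list, of which only some are printed here. Values of the mast cell and endothelium lists are not given. The rule further named the 4 genes most like Clec4e, Clec9a and Cd209a. Xcr1, Itgae, Gcsam, Flt3, S100a8, Fcer1g, Syk, Il12b, Dpp4, Kmo, Clec5a, Klrk1, Clec2e and neighbouring lectin genes were named after their values were seen. Alternatives were a brightness filter, other variance models, quantile normalization, median centring, the mean of a gene's rows, resident arrays only, runs of sample numbers as a block, all WT arrays as 1 control, leaving out each resident array and, added after seeing the data, the monocyte markers without F10.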

Additional observations from a re-analysis of the deposited data

How the results depend on the processing

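Over the alternatives, 119 of 126 Il10ra_mKO differences of single lectin genes and 101 of 117 differences between the effects kept their direction and their side of the threshold. The 72 Il10_KO differences all kept their direction. Many of these differences could not move. The brightness filter, the other variance models, the mean of rows (1 row for each gene) and the resident arrays alone leave a difference unchanged. For Il10_KO the runs of sample numbers as a block do so too. Such alternatives show nothing about direction, so the counts overstate how far it was tried. Clec4a2 in Il10ra_mKO turned to 0.0049 with median centring, 0.15 without the third WT_resident array and 0.24 without the first Il10ra_mKO array. Without 1 resident array the Il10ra_mKO difference lay between 2.51 and 3.80 for Clec4e, 1.08 and 2.14 for Clec4d, 1.11 and 1.86 for Clec7a, 1.32 and 1.58 for Clec12a, 2.53 and 3.28 for Clec9a, -2.57 and -1.88 for Cd209a, 0.26 and 0.51 for Clec4n, 0.20 and 0.71 for Card9, and -0.33 and 0.24 for Clec4a2.

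The difference between the effects turned in sign for Clec12a to -0.058 with quantile normalization, -0.051 with the runs as a block, -0.14 with all WT arrays as 1 control, and -0.091, -0.052 and -0.087 without the first or second WT_resident or the second Il10ra_mKO array. It turned for Cd209a to -0.12 with quantile normalization and -0.14 without the second Il10ra_mKO array, for Clec9a to -0.10 without that array, and with all WT arrays as 1 control to -0.30 for Clec4d and -0.13 for Clec7a. Clec4n turned to 0.13 without the third WT_resident array and 0.032 without the first Il10ra_mKO array, Card9 to 0.065 and 0.21 likewise, and Clec4a2 to 0.055 without the first Il10ra_mKO array. Without 1 resident array this difference ranged up to 0.17 for Clec12a, 0.64 for Clec9a and 0.55 for Cd209a, and down to -0.12 for Clec4n, -0.30 for Card9 and -0.51 for Clec4a2. It lay between 0.52 and 1.81 for Clec4e, 0.033 and 1.09 for Clec4d, and 0.29 and 1.05 for Clec7a.

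Past the threshold in Il10ra_mKO against WT_resident there were 0 genes higher and 1 lower. The counts were 5 and 7 with the brightness filter, 1 and 3 without a variance trend, 58 and 56 with quantile normalization, 81 and 65 with median centring, 33 and 37 with all WT arrays as 1 control, and 0 lower with the runs as a block. Without 1 resident array they ranged from 0 to 194 higher and 0 to 174 lower. Leaving out an Il10ra_mKO array leaves 1, assumed to vary like the controls. Taking all WT arrays as 1 control crosses the sort labels. Of the 9 genes, 6 were without overlap higher and 1 lower, against 8.92% and 8.5% of all genes. The count higher was 5 with all WT arrays as 1 control. It was 7 with quantile normalization, without the third WT_resident array or without the first Il10ra_mKO array. The count lower was 2 without the second Il10ra_mKO array and stayed at 1 otherwise. A single mutant array falls outside the control range more easily, and shares of all genes are not given for these alternatives. The cause of these shifts was not tested. No paired analysis was possible because the labels give no replicate numbers shared between groups, so the block is the run of sample numbers, whose meaning is not given. The lower groups of Clec9a, Cd209a and Clec4d lie near the brightness cut, which limits their folds.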

Other observations

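Among the lectin genes counted above, Clec5a and Klrk1 were higher in all mutant arrays than in the controls of the same sort label. Clec5a, which couples to Syk through Tyrobp (DAP12), was at 10.11 and 10.30 in Il10ra_mKO, against 9.01, 8.86 and 9.49 in WT_resident, and at 9.96 in Il10_KO, against 8.88 in WT_CX3CR1hi. The difference was 1.08 ± 0.23 (SE, limma adjusted p = 0.416) in Il10ra_mKO and 1.07 in Il10_KO. Klrk1 (NKG2D), a receptor of natural killer and T cells that lies past the Dectin-1 cluster, was at 6.96 and 7.34 in Il10ra_mKO, against 5.35, 5.36 and 5.97 in WT_resident, and at 7.43 in Il10_KO, against 5.48 in WT_CX3CR1hi (limma adjusted p = 0.341 for Il10ra_mKO). The T cell marker Cd3e was at 6.10 and 5.69 in Il10ra_mKO against 5.32 to 5.59 in WT_resident, near the brightness cut. The 7 measured markers of T cells and innate lymphoid cells averaged 6.40 and 6.53 in Il10ra_mKO against 6.18 to 6.46 in WT_resident. Their mean was 6.47 in Il10_KO against 6.11 in WT_CX3CR1hi. Of the 7, 1 was without overlap higher in Il10ra_mKO and 0 lower, against 8.92% and 8.5% of all genes. The part of these cells in the Klrk1 difference was not tested.

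Clec2e was lower in Il10_KO, at 6.08 against 8.27 in WT_CX3CR1hi. In the resident arrays it was at 5.90 and 5.16 in Il10ra_mKO, against 6.13, 6.28 and 5.92 in WT_resident. The effects differed by 1.61 ± 0.50 (SE, limma adjusted p = 0.259), so the difference did not pass. These genes were singled out after their values were seen.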
